A study of Mus musculus with 7 samples.

Results

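Type IV collagen and the other large proteins of the vascular basement membrane were followed as 10 genes: Col4a1, Col4a2, Col4a5, Col18a1, Lama4, Lamb1, Lamc1, Nid1, Nid2 and Hspg2. Members were the genes whose probe sets carry exactly their symbol in the array annotation, which gave 21 of 45037 probe sets, or 10 of 18193 genes. The gene list was put together with the differences between knockout and wild-type arrays of this series already known, so those differences are given below as a description, with no test. Skin from the margin of wounds was taken from C57BL/6 mice at day 5, and RNA of each mouse went onto its own 1-colour array. The MFG-E8 WT group holds 3 mice, numbered 2, 3 and 4 in the labels, and the MFG-E8 KO group holds 4, numbered 8, 10, 11 and 12. The KO animals are labelled as knockouts of MFG-E8, a secreted protein that bridges dying cells to the integrins of phagocytes. The knockout allele, and the age and sex of the animals, are not given in the sources used here. The labels give genotype as the only difference between the groups. The p-values set a difference against the spread between these mice, which limma moderates across all probe sets.

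A basement membrane is a thin sheet of matrix under epithelia and around blood vessels, muscle fibres, fat cells and nerves. It is built from a laminin network, which binds cells, and a type IV collagen network, which gives mechanical strength; nidogens and the heparan sulfate proteoglycan perlecan link them. In a healing wound, new capillaries lay down such a sheet as they mature, with laminin of the alpha 4 chain as the early endothelial form. Fibroblasts, pericytes and keratinocytes also make parts of it. In whole tissue, fewer cells of a type and less RNA per cell cannot be told apart.

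All values are log2 expression with a constant per probe set subtracted by the submitters, so 0 is near the middle of the arrays and carries no level; a difference between arrays keeps its size and direction. Mfge8, the gene targeted, was at 0.915, 0.765 and 0.996 in WT animals 2, 3 and 4 and at -0.64, -0.96, -1.14 and -1.30 in KO animals 8, 10, 11 and 12 (KO minus WT log2 -1.90, SE 0.16, limma adjusted p = 0.00875 over all probe sets). It passed the test and lay in the direction of the labels. Markers of skin were present: 12 of 13 keratinocyte genes and 10 of 11 fibroblast genes had a recovered log2 level of 8 or above, a coarse level read from the rounding of the stored values. Mfge8 had that level too, so its signal was lower in KO but not absent. Of 22 endothelial markers 10 had that level and the other 12 lay at 4 to 8. Hair follicle genes stood far higher in KO animals 8 and 10, with list means of 4.08 and 4.15 against -2.77 to 0.78 in the other 5 animals.

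Col4a1 and Col4a2 encode the chains that wind together into the common type IV collagen, and they lie head to head on chromosome 8. In the RefSeq promoter table (GRCm38.p6) their start sites face each other and overlap, so that the same 22 bases belong to the beginning of both transcripts. That stretch, with 4 bases on either side (chr8:11312801-11312830), is shown in the direction of each gene, with the match to a GC box (GGGCGG) in capitals.
Col4a2 strand: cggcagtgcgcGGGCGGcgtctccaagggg
Col4a1 strand: ccccttggagacgCCGCCCgcgcactgccg

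Col4a5 and Col4a6, which encode chains found mainly under epithelia and around smooth muscle, form another head-to-head pair on chromosome X, here with 1274 bases between the genes. The 150 bases before each gene are shown because Col4a5 was the only member higher in KO and Col4a6 is its partner; capitals mark a match to the CCAAT box (chrX:141475220-141475369, plus strand, for Col4a5; chrX:141474096-141474245, minus strand, for Col4a6).
Col4a5: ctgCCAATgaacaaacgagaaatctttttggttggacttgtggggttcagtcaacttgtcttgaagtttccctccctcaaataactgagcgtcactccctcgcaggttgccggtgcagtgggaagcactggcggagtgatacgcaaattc
Col4a6: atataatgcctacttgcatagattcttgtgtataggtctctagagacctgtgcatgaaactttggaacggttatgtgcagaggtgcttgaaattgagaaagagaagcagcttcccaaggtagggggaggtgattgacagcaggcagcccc

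The table held promoters for 7 of the 10 members (Col4a1, Col4a2, Col4a5, Col18a1, Lamb1, Nid1 and Hspg2), as windows from 250 bases before to 50 bases after a start. Searched on both strands, the GC box GGGCGG was in a window of each of the 7, against 35.7% of all 32851 windows. CCAAT was found for 6 (37.4% of all windows), and TATAAA for 0 (13.6%). The CTC motif CCCTCCCC was found for Col4a1, Col4a2, Col4a5 and Nid1, against 10.8% of all windows. The windows of Col4a1 and Col4a2 share 78 bases, which hold this match and the GC box shown above, so each counts for both. The 7 members have 8 windows, and a member counted when any of its windows matched, whereas the percentages are per window. A match is a description of letters only.

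Across the 10 genes, 9 were lower and 1 was higher in KO. The median difference of the members was log2 -0.50, with a range from -0.89 (Nid2) to 0.57 (Col4a5). Of all 18193 genes 49.1% were lower in KO (median log2 0.0040), and of the 7368 genes with a recovered level of 8 or above 58.2% were (median log2 -0.033). Every KO animal lay below every WT animal for 3 members, Col4a1, Col4a2 and Nid2, a pattern that 5.12% of all genes showed, as did 6.7% of the genes with a level of 8 or above. For 0 members every KO animal lay above every WT animal (3.34% of all genes), and the groups overlapped for the other 7. At the level of probe sets, 18 of 21 were lower in KO, 5 lay below every WT animal (4.54% of all probe sets) and 1 above (3.23%). None (0 of 21) was among the 20 probe sets with a limma adjusted p under 0.05 (0.0444% of all; 0.0355% lower and 0.00888% higher in KO), and 12 of 21 had an unadjusted p under 0.05 (7.39% of all). Nothing is read from these shares, since the genes were chosen on the same contrast.

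**Figure D1:**
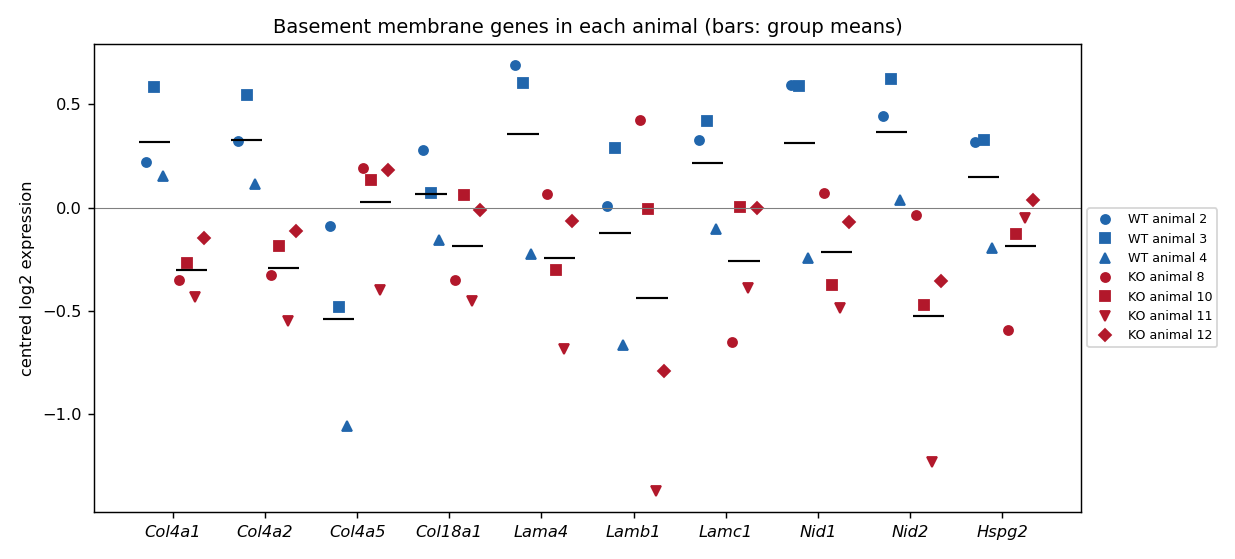
Centred log2 expression of the 10 genes (vertical axis) in each animal, with WT animals in blue, KO animals in red and the group means as bars. Col4a1, Col4a2 and Nid2 show no overlap between groups, Col4a5 is the only gene with a higher KO mean, and WT animal 4 sits among the KO animals for Col18a1, Lama4, Lamb1, Lamc1, Nid1 and Hspg2.

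Col4a1 was at 0.22, 0.58 and 0.15 in WT animals 2, 3 and 4 and at -0.35, -0.27, -0.43 and -0.15 in KO animals 8, 10, 11 and 12. The KO animals were all below the WT animals, with a gap of 0.30 between the groups. The difference was log2 -0.62 (SE 0.13, 1.54-fold lower). Its probe sets 1426348_at and 1452035_at gave log2 -0.67 (SE 0.15) and log2 -0.57 (SE 0.15), each without overlap.

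Col4a2, read by a probe set of its own, was at 0.32, 0.54 and 0.11 in WT animals 2, 3 and 4 and at -0.33, -0.19, -0.55 and -0.11 in KO animals 8, 10, 11 and 12. The order of the animals was the same as for Col4a1, and the difference was again log2 -0.62 (SE 0.15). Within an animal the centred values of the 2 genes differed by at most 0.12, less than the SD of either gene in WT (SD 0.23 and 0.22, n = 3).

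Col4a5 went the other way. It was at -0.088, -0.48 and -1.06 in WT animals 2, 3 and 4 and at 0.19, 0.13, -0.40 and 0.18 in KO animals 8, 10, 11 and 12 (log2 0.57, SE 0.24, 1.48-fold higher). The groups overlapped, because KO animal 11 lay below WT animal 2, and WT animal 4 was far below the other WT animals. The dimmer probe set 1425475_at (recovered level 4 to 8) was at -0.037, -0.18 and -0.44 in WT and at 0.53, 0.13, 0.037 and 0.26 in KO, without overlap (log2 0.46, SE 0.15).

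The remaining chains of the family are given beside them. Col4a6 was at 0.040, -0.11 and -0.42 in WT animals 2, 3 and 4 and at 0.15, -0.095, 0.41 and 0.25 in KO animals 8, 10, 11 and 12 (log2 0.34, SE 0.16), with overlap. KO animal 11 was the highest KO animal for Col4a6 and the lowest for Col4a5. Col4a3 and Col4a4, chains best known from the kidney filter, were at log2 -0.038 (SE 0.15) and log2 0.18 (SE 0.13). Both overlapped between groups. Within each animal, the centred value of Col4a1 minus that of Col4a5 was 0.31, 1.07 and 1.21 in WT animals 2, 3 and 4 and -0.54, -0.40, -0.031 and -0.33 in KO animals 8, 10, 11 and 12. The groups differed by log2 -1.19 in this value, which restates the differences of both genes: the pair was chosen after their opposite directions were seen.

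**Figure D2:**
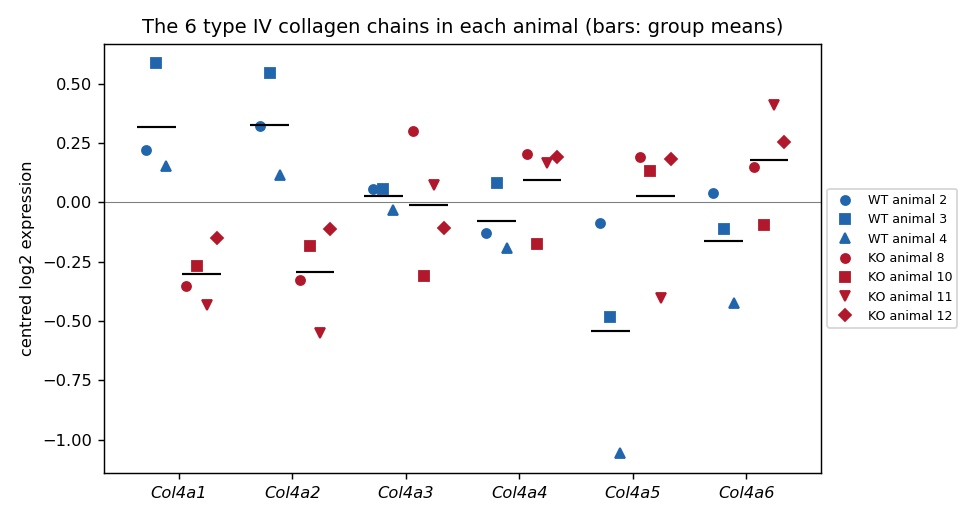
Centred log2 expression (vertical axis) of the 6 type IV collagen genes in each animal, WT in blue, KO in red, group means as bars. Col4a1 and Col4a2 are lower in each KO animal than in any WT animal, while the KO means of Col4a5 (0.026) and Col4a6 (0.18) are above the WT means (-0.54 and -0.16).

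Col18a1 encodes type XVIII collagen, a basement membrane proteoglycan whose end fragment endostatin restrains vessel growth. It was at 0.28, 0.073 and -0.16 in WT animals 2, 3 and 4 and at -0.35, 0.059, -0.45 and -0.011 in KO animals 8, 10, 11 and 12. The groups overlapped, and the difference of log2 -0.25 (SE 0.17) was about as large as the SD within the groups (0.22 and 0.25). Both probe sets were lower, by log2 -0.21 and -0.30. Col15a1, the related type XV collagen, was at log2 -0.62 (SE 0.24), also with overlap.

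The laminin trimer of growing vessels combines the alpha 4, beta 1 and gamma 1 chains. The alpha 4 chain gene Lama4 was at 0.69, 0.60 and -0.23 in WT animals 2, 3 and 4 and at 0.064, -0.30, -0.68 and -0.064 in KO animals 8, 10, 11 and 12 (log2 -0.60, SE 0.26). WT animals 2 and 3 lay above all KO animals and WT animal 4 within them. The probe set at a lower level, 1424808_at, gave log2 -0.52 (SE 0.17).

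Lamc1, the gamma 1 chain shared by most laminins, was at 0.33, 0.42 and -0.10 in WT animals 2, 3 and 4 and at -0.65, 0.0027, -0.39 and -0.0027 in KO animals 8, 10, 11 and 12 (log2 -0.48, SE 0.20). WT animal 4 again lay within the KO range. Probe set 1423886_at, at a recovered level of 4 to 8, had no overlap (log2 -0.73, SE 0.23).

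Lamb1, the beta 1 chain, varied most among the KO animals. It was at 0.0088, 0.29 and -0.67 in WT animals 2, 3 and 4 and at 0.43, -0.0088, -1.37 and -0.79 in KO animals 8, 10, 11 and 12. KO animal 8 was the highest of the 7 and KO animal 11 the lowest, so the difference of log2 -0.31 was smaller than its SE of 0.43. Without KO animal 11 it was log2 -0.0027, and without KO animals 8 and 10 together it was log2 -0.96. Probe sets 1424113_at and 1451241_at ordered KO animals 8, 10, 12 and 11 in the same way, and the dim 1446180_at (level 2 to 4) stayed at log2 0.078. Lama5, the alpha chain of mature vessels and of epidermis, was at log2 0.081 (SE 0.12); it was singled out after its values were seen.

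Nidogens are rod-like proteins that hold laminin to type IV collagen. Nid2 had the largest difference of the 10 genes. It was at 0.44, 0.62 and 0.037 in WT animals 2, 3 and 4 and at -0.037, -0.47, -1.23 and -0.36 in KO animals 8, 10, 11 and 12. The groups did not overlap, but WT animal 4 and KO animal 8 were only 0.073 apart, and the difference was log2 -0.89 (SE 0.28, 1.86-fold lower).

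Nid1 was at 0.59, 0.59 and -0.25 in WT animals 2, 3 and 4 and at 0.072, -0.37, -0.49 and -0.072 in KO animals 8, 10, 11 and 12 (log2 -0.53, SE 0.24). WT animals 2 and 3 were above and WT animal 4 within the KO animals, as for Lama4. Probe set 1441519_at, at level 2 to 4, was at log2 -0.14 (SE 0.13).

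Hspg2 encodes perlecan, which stores growth factors on its heparan sulfate chains. Its gene value was at 0.32, 0.33 and -0.20 in WT animals 2, 3 and 4 and at -0.59, -0.13, -0.053 and 0.035 in KO animals 8, 10, 11 and 12 (log2 -0.33, SE 0.19). Its probe sets, both at level 8 or above, disagreed in size: 1418670_s_at gave log2 -0.60 (SE 0.21) and 1418669_at log2 -0.070 (SE 0.18). The gene value is the mean of both.

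**Figure D3:**
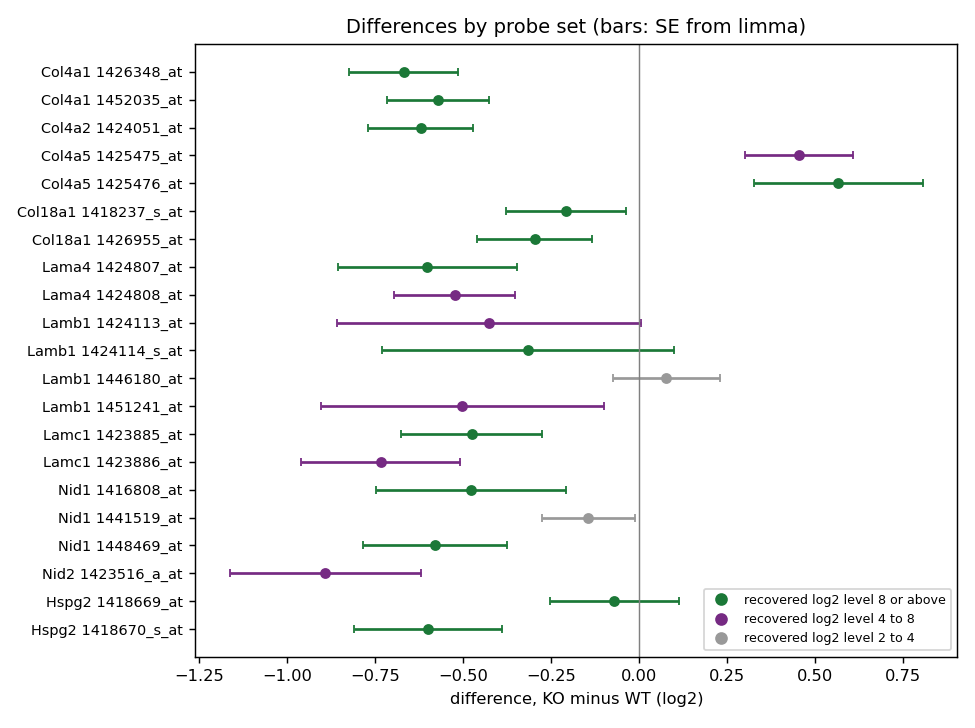
Difference between KO and WT (horizontal axis, log2, KO minus WT) for each of the 21 probe sets, with SE bars from limma and colours for the recovered log2 level. Probe sets of Col4a1, Col4a5, Col18a1, Lama4, Lamc1 and Nid1 share a direction within a gene, Lamb1 has a dim exception at log2 0.078, and those of Hspg2 differ in size.

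Deviations of each animal from its group mean leave out the difference between genotypes. Among the 45 pairs of members these deviations correlated positively in 43, with a median Pearson r of 0.58 over the 7 animals, as a description; all genes of an animal share its array and normalization. The highest values were for Nid1 with Lama4 (r = 0.98), Lama4 with Col4a5 (r = 0.94) and Col4a1 with Col4a2 (r = 0.91), and the lowest for Hspg2 with Lamb1 (r = -0.25). Col4a5 varied in the same direction as each of the 9 others within groups, although its group difference had the opposite sign. The mean of the 10 genes was 0.31, 0.36 and -0.23 in WT animals 2, 3 and 4 and -0.16, -0.15, -0.61 and -0.13 in KO animals 8, 10, 11 and 12. WT animals 2 and 3 were therefore high, WT animal 4 lay within the KO range, and KO animal 11 was apart from the other KO animals.

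The genes whose values over the 7 animals were most like that mean were Loxl3, a lysyl oxidase of collagen crosslinking (r = 0.996), Maged1 (r = 0.996), Srpx (r = 0.992), Kdelr3, a receptor that returns chaperones to the endoplasmic reticulum (r = 0.992), and Stx2, a membrane fusion protein (r = 0.992). They are the highest of all 18193 genes by construction. Their differences ranged from log2 -0.82 (Kdelr3) to log2 -0.49 (Maged1), and in each WT animal 4 lay within the KO range.

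Of 19 further basement membrane components 8 were lower and 11 higher in KO (median log2 0.061). Of these 0 passed the limma test over all probe sets, and 2 lower and 1 higher had an unadjusted p under 0.05. In this and the following lists, a gene was counted when any probe set of its gene value reached that p. Of all probe sets 7.39% did. Fbln2, which encodes the matrix protein fibulin 2, was at log2 -0.72 (SE 0.30), and agrin, Agrn, a heparan sulfate proteoglycan, at log2 0.33 (SE 0.14). Genes of the epidermal anchoring complex were divided 4 to 4 among the 8 measured (median log2 0.0043); 0 passed and 0 had an unadjusted p under 0.05. Among them the linker Plec was at log2 -0.42 (SE 0.23), Col7a1, the anchoring fibril collagen, at log2 -0.32 (SE 0.30), and Dst at log2 0.20 (SE 0.23).

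Genes that fold, modify and secrete collagen chains were lower in 14 of 15 (median log2 -0.40). None (0) passed the limma test over all probe sets, and 6, all lower, had a probe set with an unadjusted p under 0.05. The lysyl hydroxylase Plod3, which also adds sugars to type IV collagen, was at 0.49, 0.44 and 0.020 in WT animals 2, 3 and 4 and at -0.27, -0.20, -0.25 and -0.020 in KO animals 8, 10, 11 and 12 (log2 -0.50, SE 0.14). The galactosyltransferase Colgalt1 was at log2 -0.40 (SE 0.12) and the prolyl 3-hydroxylase P3h1 at log2 -0.91 (SE 0.28). Those 3 lay below every WT animal, as did 5.12% of all genes, again with WT animal 4 closest to the KO animals. Plod1, another lysyl hydroxylase, was at log2 -0.62 (SE 0.23) with overlap.

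Receptors for these matrix proteins were lower in 10 of 13 (median log2 -0.085), with 0 passing and 2, both lower, at an unadjusted p under 0.05. Itga1, the alpha chain of a collagen IV receptor, was at 0.065, 0.29 and 0.27 in WT animals 2, 3 and 4 and at -0.065, -0.46, -0.61 and -0.37 in KO animals 8, 10, 11 and 12 (log2 -0.58, SE 0.14). Mcam, a laminin alpha 4 receptor of endothelium and pericytes, was at log2 -0.60 (SE 0.17). For both, every KO animal lay below every WT animal, as in 5.12% of all genes. Ddr1, a collagen receptor of epithelia, was at log2 0.25 (SE 0.14) with overlap. Of 13 proteases and inhibitors 10 were lower (median log2 -0.20); 0 passed, and 6 lower and 1 higher had an unadjusted p under 0.05. The inhibitor Timp1 was at log2 -1.35 (SE 0.25) and Timp3 at log2 0.70 (SE 0.24), while Mmp9, which cleaves type IV collagen, was at log2 -0.85 (SE 0.27) and Mmp14 at log2 -0.61 (SE 0.23).

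All 22 endothelial markers were lower (median log2 -0.67). Of these 0 passed and 21 had an unadjusted p under 0.05, against 7.39% of all probe sets. List means were 0.13 to 0.58 in WT and -0.52 to -0.10 in KO. In 17 markers every KO animal lay below every WT animal, against 5.12% of all genes. The list was chosen with earlier results known, so nothing is read from these shares. All 11 fibroblast markers were lower (median log2 -0.45; 0 passed, 4 had an unadjusted p under 0.05). Their means were 0.50, 0.41 and -0.25 in WT animals 2, 3 and 4 and -0.50 to -0.070 in KO. WT animal 4 lay at or below the highest KO animal in 77.7% of all genes. It did so in 7 of the 10 members, in 8 of the 11 fibroblast markers and in 0 of the 22 endothelial markers. The shares in members and fibroblast markers are near that of all genes. However, that share includes genes higher in KO, and the share among genes lower in KO was not computed. Examples from the endothelial list are the receptor Ecscr (log2 -0.95, SE 0.12) and the sialomucin Emcn (log2 -0.95, SE 0.16). From the fibroblast list, the mesenchymal factor Twist2 was at log2 -0.84 (SE 0.18) and the PDGF receptor Pdgfra at log2 -0.62 (SE 0.21). Within groups, the deviations of Lama4, Nid1 and Col4a5 had r = 0.98, 0.97 and 0.95 with those of the fibroblast mean over the 7 animals. With those of the endothelial mean they had r = -0.14, -0.02 and -0.34. WT animal 4 and KO animal 11 were the lowest of their groups in each of these genes and in the fibroblast mean. In the endothelial mean WT animal 2 and KO animal 8 were the lowest. The r of Lama4, Nid1 and Col4a5 with the mean of the collagen folding list, a pathway list, was 0.98, 0.93 and 0.98. The means of that list were themselves near the fibroblast means, at 0.46, 0.36 and -0.16 in WT animals 2, 3 and 4. Nid2 had r = 0.78 with the fibroblast and -0.22 with the endothelial mean, and Col4a2 had 0.76 and 0.24. For Col4a1 both were r = 0.58. Of these means, Col18a1 (0.67 and -0.17), Lamb1 (0.66 and -0.47) and Lamc1 (0.52 and 0.31) also had the higher r with the fibroblast mean. Hspg2 had 0.42 with the fibroblast and 0.48 with the endothelial mean, and 0.55 with the skeletal muscle mean. With the collagen folding mean, Nid2, Col4a2, Col18a1 and Lamb1 had r = 0.84, 0.77, 0.71 and 0.76, above their fibroblast values. Col4a1, Lamc1 and Hspg2 had 0.53, 0.49 and 0.31 with it, below theirs. Nid2 and Col4a5 also had 0.70 and 0.68 with the hair follicle mean. Which of these lists a member followed was not tested. Lamb1, which among the KO animals was higher in 8 and 10 than in 11 and 12, had r = 0.89 with the hair follicle mean. These r values are descriptions over few animals that share arrays and normalization. The part of either cell type in the differences of the members was not tested.

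**Figure D4:**
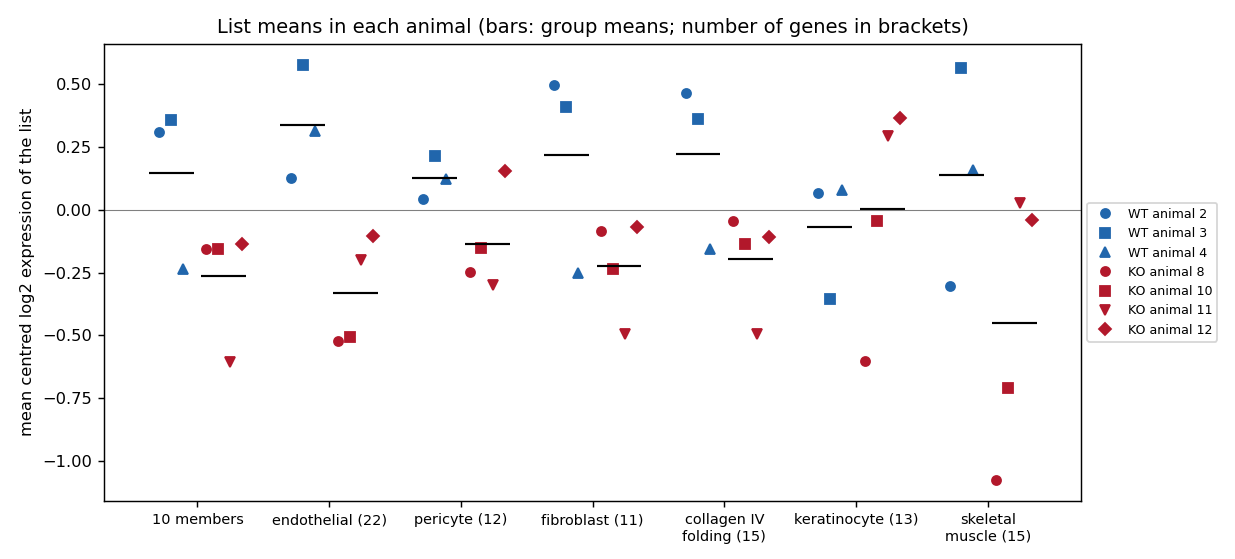
Mean centred log2 expression (vertical axis) of the 10 members and of 6 lists in each animal, WT in blue, KO in red, with group means as bars. WT animal 4 lies above all KO animals for endothelial markers (0.31) and among them for the 10 members (-0.23), the fibroblast markers (-0.25) and the collagen folding genes (-0.16).

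Pericyte and vascular smooth muscle markers were lower in 10 of 12 (median log2 -0.24; 0 passed, 2 had an unadjusted p under 0.05), with means of 0.042 to 0.21 in WT and -0.30 to 0.15 in KO; the PDGF receptor Pdgfrb was at log2 -0.71 (SE 0.18). Skeletal muscle markers, whose fibres carry a basement membrane of their own, were lower in 15 of 15 (median log2 -0.61). Of these 0 passed and 0 had an unadjusted p under 0.05. Their means were -0.30, 0.56 and 0.16 in WT animals 2, 3 and 4. In KO animals 8, 10, 11 and 12 they were -1.07, -0.71, 0.028 and -0.040. Only KO animals 8 and 10 lay below the WT range, and KO animals 11 and 12 lay within it. Macrophage markers were lower in 14 of 14 (median log2 -0.40; 0 passed, 5 at an unadjusted p under 0.05; means 0.0077 to 0.32 in WT and -0.53 to 0.034 in KO). Adipocyte markers were lower in 5 of 8 (median log2 -0.21, but 0.15 without WT animal 3; 0 passed, 1 at an unadjusted p under 0.05). Keratinocyte markers were divided, with 6 of 13 lower (median log2 0.069; 0 passed, 1 lower and 2 higher at an unadjusted p under 0.05), and Schwann cell markers were lower in 5 of 6 (median log2 -0.013; 0 passed, 0 at an unadjusted p under 0.05). Hair follicle markers were higher in 19 of 19 (median log2 2.42; 0 passed, 0 at an unadjusted p under 0.05), with KO animals 8 and 10 far above the rest. Without those 2 animals 9 of the 10 members were lower, as with them, and the median difference of the members was log2 -0.60.

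Without WT animal 4, 8 of the 10 members lay below every WT animal, all but Col4a5 and Lamb1, where 11.9% of all genes then did, and the median difference was log2 -0.67. Lamb1 was then at log2 -0.59 and Hspg2 at log2 -0.51. Without any other animal the 3 members without overlap were the same, Col4a1, Col4a2 and Nid2, while the share over all genes was 6.08% to 9.5%.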

How the data were processed

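Gene expression was measured in wound-edge RNA of 7 mice. Per the labels, total RNA was isolated with a miRVana kit, biotin-labelled and hybridised to 1-colour arrays. The submitters' processing notes name GCRMA without a version, so the deposited values were read as log2, with the base assumed. A constant per probe set had been subtracted: in 72.4% of probe sets a neighbouring pair of the 7 values was mirrored around 0 (tolerance 1e-06). Array medians lay between -0.0044 and 0.012. Precision is limited by having 3 and 4 arrays.

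After removal of 64 controls, 45037 probe sets were fitted with limma 3.58.1 in R 4.3.3 (lmFit and eBayes, KO minus WT, no covariates, Benjamini-Hochberg, threshold 0.05). On simulated data of the same size the pipeline recovered 53% of changes of log2 1 and 89% of changes of log2 2. Every member difference was smaller than log2 1, so a probe set that did not pass is not shown to be unchanged. In the annotation 34945 carry 1 symbol, 932 several and 9160 none. Level bands (21.6% at 2 to 4, 53.1% at 4 to 8, 25.3% at 8 or above) were read from the single-precision step of the stored values. A gene value is the mean over its probe sets in its highest band, with its SE from the same model over 18193 genes. A listed gene counted as passing, or as having an unadjusted p under 0.05, when any of those probe sets did. Its direction was that of the gene value. Genes with several such probe sets had more chances to be counted. Animal numbers are not shared between groups, so the comparison was unpaired.

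The members, gene lists and alternatives were chosen with earlier results of these data known. Named genes are Mfge8, the members, up to 4 genes per list with the smallest p, and the 5 non-member genes most like the member mean. Lama5, Col4a3 and Col4a4 are named beyond that rule. Of the listed genes 12 had no probe set with their symbol alone and were not analysed here. Sequences are RefSeq's (GRCm38.p6). Plots were drawn with matplotlib 3.10.9, after tables built in Python 3.11.15 using numpy 2.4.6 with pandas 2.3.3.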

Additional observations from a re-analysis of the deposited data

Results flagged for a closer look

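KO animal 11 stood apart from the other KO animals in the mean of the 10 members, at -0.61 against -0.16, -0.15 and -0.13. The same animal stood apart in Col4a5, at -0.40 against 0.19, 0.13 and 0.18; that gene value is its probe set 1425476_at, which is the same observation (-0.40). The gap to the next KO animal was 0.955 of the range of the 4 animals for the mean and 0.905 for Col4a5, above Dixon's critical value for 4 samples. Among 46 such groups, members, their probe sets and lists, chance flags about 1 in 20, and these groups share animals and genes.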

How the results depend on the processing

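Of the 10 members 9 were lower in KO under quantile normalization, subtraction of array medians, array weights, averaging every probe set of a gene regardless of level and without each animal in turn, and 8 of the 9 that remain without _x_at, _s_at and _a_at probe sets, which leaves out Nid2. The median difference of the members ranged from log2 -0.67 to -0.38 without each animal in turn and was log2 -0.40 without those probe sets; every member difference kept its sign in the alternatives run. The number of members with every KO animal below every WT animal, an alternative added after seeing the data, ranged from 3 to 8 without each animal in turn (8 without WT animal 4) and was 4 without KO animals 8 and 10; the share of all genes with that pattern, 5.12% with all animals, was 6.08% to 11.9% and 12.4% in those settings. The number of probe sets called over the whole table was 20; it was 13 after quantile normalization, 68 with array weights, 3 among probe sets of recovered level 8 or above, which also holds fewer probe sets, and 5 to 19 without each animal in turn (lowest when WT animal 3 was left out, with 5, then KO animal 10 with 6 and WT animal 2 with 7). Without each animal in turn, 4 list medians changed sign: epidermal anchoring (log2 -0.23 to 0.29), keratinocyte (-0.13 to 0.23), adipocyte (-0.47 to 0.15) and Schwann cell (-0.088 to 0.034). The other lists kept their sign, with medians from log2 -0.70 (without WT animal 4) to -0.26 (without WT animal 2) for fibroblast, -0.87 (without WT animal 2) to -0.37 (without KO animal 8) for skeletal muscle, -0.65 to -0.30 for collagen folding, -0.41 to -0.13 for proteases and inhibitors, -0.16 to -0.057 for receptors, -0.36 to -0.20 for pericyte, -0.83 to -0.56 for endothelial, -0.56 to -0.29 for macrophage, 0.019 to 0.11 for further basement membrane and 1.36 to 3.70 for hair follicle genes. Where these values moved, the cause was not tested. No paired analysis was possible because the groups share no animal number.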
